A study of Homo sapiens with 6 samples.

Results

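The actin cytoskeleton was followed here through 41 genes that encode actins, non-muscle and smooth muscle myosin chains, tropomyosins, calponins and other thin filament binders, actin crosslinkers, focal adhesion proteins, filament assembly factors and the transcription factor SRF. The genes were taken from a list of symbols, and the rule of choice used no measured value, although the list was drawn up with earlier results of these data known. Of the 41 listed genes, 36 were measured by at least 1 probe set given to that gene alone, out of 19775 genes read in the same way, and these 36 genes had 115 of the 54613 probe sets tested. ACTG1 was read only by 9 probe sets that the annotation gives to ACTB and ACTG1 together. TPM3, FLNA, FLNC and FHL1 were not analysed here. The cells were NCI-H226, a human mesothelioma cell line. The tested cultures were 3 spheroid cultures, in which 10000 cells per well were spun together over a poly-HEMA coat that prevents attachment and were then kept for 24 hours without any added matrix. They were compared with 3 monolayer cultures of the same line, which grew attached to plastic. Each culture was a separate biological replicate hybridized to 1 Affymetrix U133 Plus 2.0 array, and the comparison asks how the RNA of a tumor cell line differs between a 3D and a flat culture. All results rest on 1 cell line, 1 time point and RNA alone.

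Actin filaments in attached cells are gathered into stress fibers, contractile bundles in which non-muscle myosin slides along filaments that are coated with tropomyosin and tied together by alpha-actinin. The fibers end in focal adhesions, where talin, vinculin and zyxin couple them to the integrins that hold the cell on its substrate. The pool of unpolymerized actin in turn controls the myocardin-related coactivators of SRF, a transcription factor that binds the CArG box and drives many cytoskeletal genes.

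The trimmed mean signal was 150 on every array, while the array medians lay at 15.6, 18 and 15.2 in spheroids and at 14.7, 14.6 and 14.7 in monolayers. Signals were therefore centred on the array median before testing, which moved every spheroid-to-monolayer log2 fold change by -0.15. Monolayer replicate 1 stood apart from the other monolayers. Its COL3A1 signal was 313, against 4.67 and 6.67 in monolayers 2 and 3, and its KDR signal was 422, against 13.6 and 8.35. Spheroid replicate 1 had the highest spheroid signals of both genes, 24.8 for COL3A1 and 61.2 for KDR. Values without monolayer 1 are given for TAGLN and for the called PDLIM7 probe sets. They are also given for the uncalled genes TAGLN2, CNN1, ACTA2 and MYH10, in which monolayer 1 stood out. For other genes, only calls or counts without it are stated. The ACTB control probe sets, whose 3' to 5' ratio measures RNA integrity, gave a ratio of 1.17 ± 0.0603 in spheroids and 1.09 ± 0.0123 in monolayers (SD, n = 3 each). The groups did not overlap, and the two-sided exact permutation p was 0.1, the smallest that 3 arrays against 3 allow (adjusted p = 0.2 over 2 controls). The GAPDH controls gave 0.901 in spheroids and 0.894 in monolayers, and those groups overlapped (exact permutation p = 0.6). The part of RNA integrity in the gene results was not tested.

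Several of the listed genes share a sequence feature that the list did not use. A CArG box, in which a pair of cytosines and a pair of guanines enclose 6 A or T bases, lay in the RefSeq promoter window (GRCh38.p14, from 250 bases before to 50 bases after the gene start, both strands searched) of 11 of 38 listed genes with a window, or 28.9%. Among all 27305 genes with a window, 438 held one, or 1.6%. The 8 measured genes with a box are printed here, since SRF binds this element and SRF itself is among them. Each line gives 30 bases in the direction of the gene, with the box in capitals. The SRF stretch (chr6:43171239-43171268, plus strand) held 2 boxes. ACTG2 held a second box in its window, and FHL2 a second box in another of its windows, which are not printed.
SRF: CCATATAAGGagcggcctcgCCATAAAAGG
ACTG2 (chr2:73892888-73892917, plus strand): gaaaaaaccaCCTTATATGGtaatattgct
ACTC1 (chr15:34795639-34795668, minus strand): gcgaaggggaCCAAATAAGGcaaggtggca
MYLK (chr3:123620623-123620652, minus strand): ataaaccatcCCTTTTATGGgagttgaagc
TPM4 (chr19:16067355-16067384, plus strand): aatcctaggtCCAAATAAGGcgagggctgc
CNN2 (chr19:1026509-1026538, plus strand): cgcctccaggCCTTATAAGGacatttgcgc
ACTN1 (chr14:68977718-68977747, minus strand): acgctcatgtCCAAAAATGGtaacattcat
FHL2 (chr2:105438595-105438624, minus strand): aatctggagaCCTTAAAAGGcacgtgggag
ACTC1 and TPM4 carried the same 10 letters. ACTG1, FLNA and FHL1 also held a box in this window. TAGLN, ACTB and MYL9 had no window in the table. These matches are a description of the windows and not of binding.

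Of the actin cytoskeleton genes, most did not pass the test between spheroids and monolayers, and the few that passed were all lower in spheroids. TAGLN, which encodes the actin-binding protein transgelin, and DIAPH3, a formin that elongates unbranched filaments, fell most, 2.39-fold and 2.38-fold. DIAPH1, a second formin, and ACTN4, which encodes the crosslinker alpha-actinin-4, fell 1.55-fold and 1.57-fold. By limma with Benjamini-Hochberg adjustment over all probe sets, 4 of the 36 genes fell, 0 rose and 32 did not pass, each gene being read by its probe set with the highest mean level. At an unadjusted p under 0.05, 8 were lower and 1 was higher, against 17.9% and 9.62% of all genes. The share that fell by the adjusted p was close to the background, since 9.22% of all genes fell and 3.88% rose. The median log2 fold change was -0.17 over the 36 genes and -0.06 over all genes. All 36 genes were read above the median level. With dim probe sets (under the median level) left out, the median over all genes was -0.12, nearer to that of the 36. The sign of the small differences depended on the scaling. With centring, 26 of the 36 values were negative and 10 positive, and without it 19 were negative and 17 positive, while the median over all genes moved to 0.08. Across all probe sets the calls divided into 1519 higher and 3630 lower with centring, against 2561 and 2863 without it. TAGLN, DIAPH3, DIAPH1 and ACTN4 passed under either scaling and also without monolayer 1. DIAPH3 kept its call on leaving out any 1 array, whereas 2 genes remained called without monolayer 2 or monolayer 3 (TAGLN and DIAPH3) and without spheroid 3 (DIAPH1 and DIAPH3). Without spheroid 2, DIAPH1 and DIAPH3 remained called and MYLK was called higher (limma adjusted p = 0.0332). None of the 4 passed when limma was run without a mean-variance trend, and 1 (DIAPH1) passed by the methods' t-test with Benjamini-Hochberg adjustment. The array signals are relative amounts of RNA from whole cultures, so that fewer cells of a kind and less RNA per cell cannot be told apart.

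**Figure D1:**
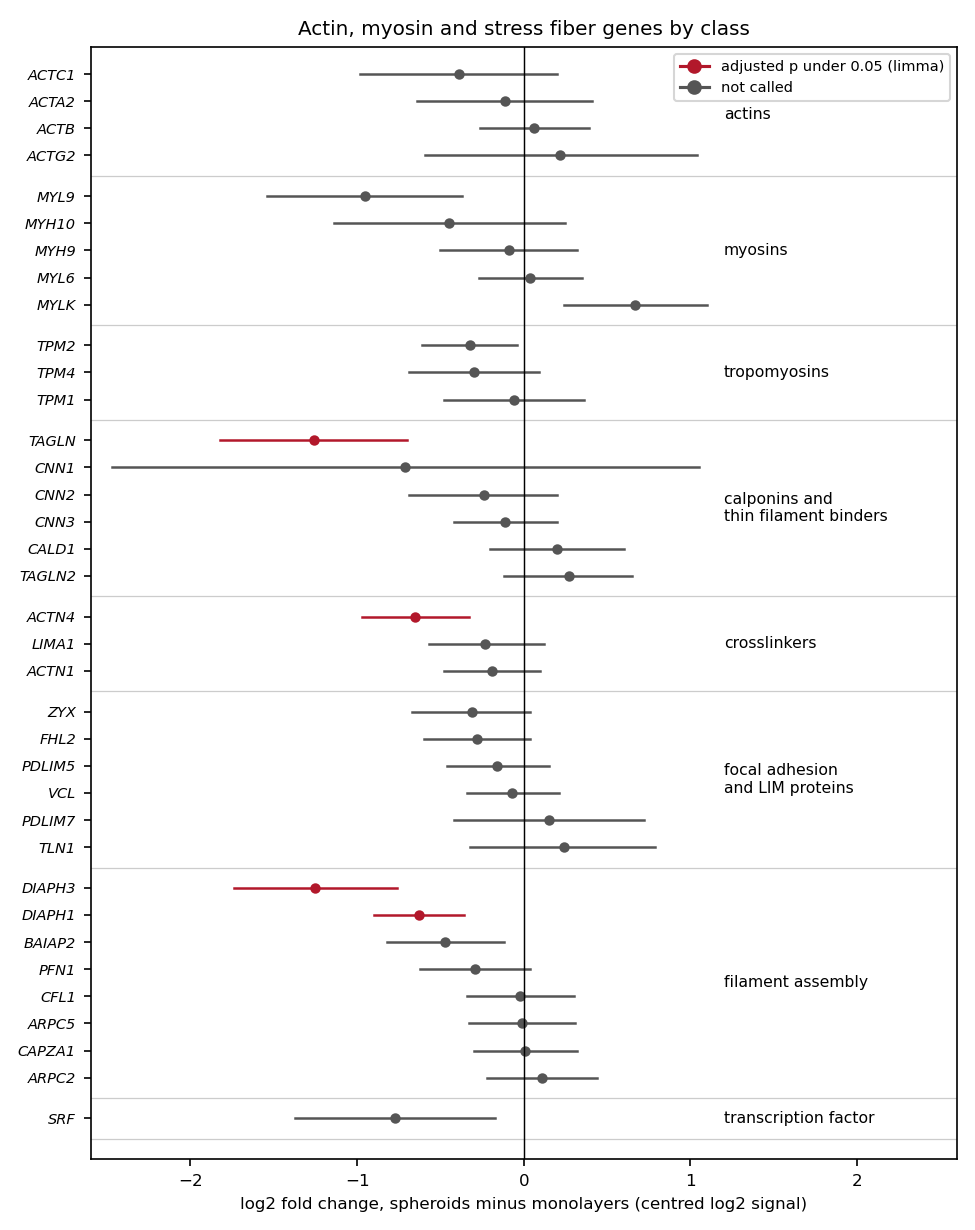
Log2 fold change (spheroids minus monolayers, log2 signal centred on the array median) of the 36 measured genes at the brightest probe set, grouped by class, with 95% confidence intervals from limma. The 4 genes in red, TAGLN, ACTN4, DIAPH3 and DIAPH1, passed at an adjusted p under 0.05, and all 4 lie left of 0. Most intervals of the actins, tropomyosins and focal adhesion genes include 0.

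Among the calponins and thin filament binders, 1 of 6 genes fell and none rose. TAGLN gave signals of 666, 460 and 554 in spheroids, against 1646, 1130 and 924 in monolayers. Every spheroid lay below every monolayer. The log2 fold change was -1.26 (SE 0.25, limma adjusted p = 0.014), which is a 2.39-fold lower level in spheroids. Monolayer 1 held the highest TAGLN signal, and without it the log2 fold change was -1.03 (limma adjusted p = 0.0133). A second TAGLN probe set gave -1.28 (limma adjusted p = 0.0218), and the remaining of its 3 probe sets gave -0.76 and did not pass. TAGLN lost its call without spheroid 2 (limma adjusted p = 0.0549) or spheroid 3 (limma adjusted p = 0.051).

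CNN1, which encodes the smooth muscle calponin that binds actin and restrains myosin, was read at 549, 150 and 135 in spheroids, against 1210, 180 and 165 in monolayers. Replicate 1 was the high array in both groups, and the groups overlapped. The log2 fold change of -0.71 (95% interval -2.47 to 1.05) did not pass, and without monolayer 1 it was 0.23. TAGLN2, the transgelin of non-muscle cells, averaged 4284 ± 59.5 in spheroids and 3262 ± 665 in monolayers (SD, n = 3 each). Its deposited signals did not overlap, but with centring the log2 fold change was 0.27 (limma adjusted p = 0.417) and the groups overlapped, and without monolayer 1 it was 0.43 (limma adjusted p = 0.133). The calponins of non-muscle cells, CNN2 and CNN3, and the tropomyosin-binding protein caldesmon (CALD1) had log2 fold changes of -0.24, -0.11 and 0.20, none of which passed. CALD1 had 11 probe sets, and none of them passed.

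Of the 8 filament assembly genes 2 fell, both formins, and none rose. DIAPH3 gave signals of 997, 665 and 540 in spheroids, against 1622, 1435 and 1536 in monolayers. Spheroid 1 was the highest of the spheroids, and the groups did not overlap. The log2 fold change was -1.25 (SE 0.22, limma adjusted p = 0.00812), a 2.38-fold lower level in spheroids. All 3 DIAPH3 probe sets fell. Another gave 126, 76.6 and 70.9 in spheroids, against 244, 263 and 297 in monolayers, a log2 fold change of -1.75 (limma adjusted p = 0.00292). The dimmest gave 10.4, 13.2 and 8.35 in spheroids, against 37.6, 31.8 and 35 in monolayers, with a log2 fold change of -1.88 (limma adjusted p = 0.00613). The spheroid signals of the dimmest lay below the array medians. It was nevertheless the only one of the 115 probe sets that passed without the mean-variance trend, at an adjusted p of 0.0444 by limma.

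DIAPH1, a formin that both nucleates and elongates filaments, was read at 559, 710 and 620 in spheroids, against 883, 893 and 853 in monolayers. The groups were apart, with a log2 fold change of -0.63 (SE 0.12, limma adjusted p = 0.0118). It was called by this 1 probe set of 4, the others ranging up to 0.24, and it lost the call without monolayer 2 (limma adjusted p = 0.0698) or monolayer 3 (limma adjusted p = 0.053). BAIAP2, which encodes the membrane-bending adaptor IRSp53, averaged 187 ± 26.6 in spheroids and 233 ± 22.1 in monolayers (SD, n = 3 each). The groups did not overlap, but the log2 fold change of -0.47 did not pass (limma adjusted p = 0.0989). All 4 BAIAP2 probe sets were negative. One at 103, 137 and 109 in spheroids, against 149, 158 and 189 in monolayers, fell by 0.66 on the log2 scale (limma adjusted p = 0.0304), a call that was lost without centring. A dim probe set gave 0.977, 2.31 and 9.81 in spheroids, against 34.8, 28.8 and 21.6 in monolayers. It passed (limma adjusted p = 0.0269), but 2 of its spheroid signals were under 3.11, the 20th percentile of all signals, so that no size is given, and it lost its call without monolayer 2 or 3 and without spheroid 1 or 2.

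The other 5 assembly genes did not pass. Profilin (PFN1), which feeds actin monomers to formins, averaged 2582 ± 133 in spheroids and 2865 ± 216 in monolayers (SD, n = 3 each), with a log2 fold change of -0.29. Cofilin (CFL1), which severs filaments, the capping protein subunit CAPZA1, and the Arp2/3 complex subunits ARPC2 and ARPC5, which serve branched networks, had log2 fold changes of -0.02, 0.01, 0.11 and -0.01. The 95% intervals of CFL1, CAPZA1 and ARPC5 reached no further than 0.34 from 0. On the deposited signals, CAPZA1, ARPC2 and ARPC5 were higher in every spheroid than in every monolayer. With centring, these 3 genes overlapped.

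Of the 3 crosslinkers measured, 1 fell. ACTN4 gave 274, 265 and 259 in spheroids, against 355, 420 and 360 in monolayers. The spheroids were tightly grouped below all monolayers, and the log2 fold change was -0.65 (SE 0.14, limma adjusted p = 0.0211). Only 1 probe set read ACTN4, and it lost its call without monolayer 2, monolayer 3, spheroid 2 or spheroid 3 (limma adjusted p from 0.0613 to 0.104).

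ACTN1, which encodes the alpha-actinin of stress fibers and focal adhesions, differed between its 4 probe sets. The brightest gave 3218, 3241 and 3230 in spheroids, against 3387, 3278 and 3323 in monolayers, with a log2 fold change of -0.19 that did not pass. A second gave 1889, 1923 and 1733 in spheroids, against 2415, 2571 and 2580 in monolayers, and fell by 0.59 on the log2 scale (limma adjusted p = 0.0165). One more gave 1276, 1237 and 1383 in spheroids, against 2072, 2211 and 2053 in monolayers, and fell by 0.85 on the log2 scale (limma adjusted p = 0.00653). The groups did not overlap at any of these 3 probe sets, while the size of the difference depended on the probe set read. The probe sets that fell carry names of the kind Affymetrix gives to probes that may match several transcripts. LIMA1, which encodes the bundling protein EPLIN, averaged 4105 ± 380 in spheroids and 4337 ± 251 in monolayers (SD, n = 3 each) and did not pass.

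None of the 4 actin genes measured singly passed by limma, at an adjusted or an unadjusted p under 0.05. ACTB, the cytoplasmic beta-actin, gave 6674, 5984 and 5783 in spheroids, against 5714, 5156 and 5069 in monolayers. As deposited, the spheroid signals were all higher, but with centring the groups overlapped and the log2 fold change was 0.06 (95% interval -0.26 to 0.39). The other ACTB probe sets overlapped between the groups as deposited, with log2 fold changes of -0.09 and -0.08. The 9 probe sets shared by ACTB and gamma-actin (ACTG1) ranged from 4617 to 5454 in spheroids and from 3912 to 5120 in monolayers, with log2 fold changes from -0.07 to 0.04. These 2 actins cannot be separated there. All 9 probe sets, and also those of ACTB alone, are near the top of the arrays' range, where a maximum of 6051 to 7257 was reached.

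ACTA2, the smooth muscle alpha-actin found in contractile stress fibers, gave 903, 1126 and 921 in spheroids, against 634, 1088 and 1273 in monolayers. The monolayers spanned the spheroids, with monolayer 1 the lowest array, and the log2 fold change was -0.11 (95% interval -0.64 to 0.41). Without monolayer 1 it was -0.41 (limma adjusted p = 0.0931). ACTG2, the enteric smooth muscle gamma-actin, was near the array median at 15.3, 20.1 and 19.5 in spheroids and 18.1, 14.8 and 10.4 in monolayers. Cardiac actin, ACTC1, was read at 38, 28.7 and 25.8 in spheroids and 36.4, 33.3 and 38.5 in monolayers. Both overlapped between the groups, with log2 fold changes of 0.22 for ACTG2 and -0.39 for ACTC1.

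Of the 5 myosin genes, none passed by limma, 1 was higher and 1 lower at an unadjusted p under 0.05, and these 2 regulators pointed in opposite directions. MYL9, the regulatory light chain whose phosphorylation turns on contraction, gave 133, 81.8 and 91 in spheroids, against 227, 163 and 143 in monolayers. Every spheroid was below every monolayer, with a log2 fold change of -0.95 (SE 0.26, limma adjusted p = 0.0521). MYL9 passed when dim probe sets were left out (limma adjusted p = 0.0317) and without spheroid 1 (limma adjusted p = 0.0284). MYLK, the kinase that phosphorylates that light chain, gave 1366, 1018 and 1130 in spheroids, against 556, 762 and 682 in monolayers. Every spheroid was above every monolayer, with a log2 fold change of 0.67 (SE 0.19, limma adjusted p = 0.0593). MYLK passed without centring, at 0.82 (limma adjusted p = 0.0124), after quantile normalization, at 0.85 (limma adjusted p = 0.0111), without dim probe sets (limma adjusted p = 0.0347) and without spheroid 2. It had 5 probe sets, with log2 fold changes from -1.25 to 1.10, and none of them passed with centring. Both ends of that range came from dim probe sets with at least 1 array under 3.11. The second brightest gave 503, 475 and 483 in spheroids, against 180, 317 and 295 in monolayers. Its groups did not overlap, with a log2 fold change of 0.78 (limma adjusted p = 0.0559). MYLK was the one measured gene whose groups were apart on centred values and higher in spheroids, against 11 genes that were apart and lower. Over all genes, 11.7% were apart and higher and 20.6% apart and lower. On the signals as deposited, 7 of the 36 genes were apart and higher and 7 apart and lower, against 19.0% and 16.0% of all genes.

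The myosin heavy chains and the essential light chain gave no call. MYH10, which encodes non-muscle myosin IIB, was read at 969, 764 and 715 in spheroids, against 1712, 821 and 702 in monolayers. Monolayer 1 alone was high, and the log2 fold change of -0.45 became -0.05 without it. MYH9, which encodes non-muscle myosin IIA, averaged 642 ± 151 in spheroids and 609 ± 73.3 in monolayers (SD, n = 3 each), with a log2 fold change of -0.09. MYL6 averaged 4759 ± 107 in spheroids and 4186 ± 207 in monolayers (SD, n = 3 each), and its log2 fold change with centring was 0.04.

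**Figure D2:**
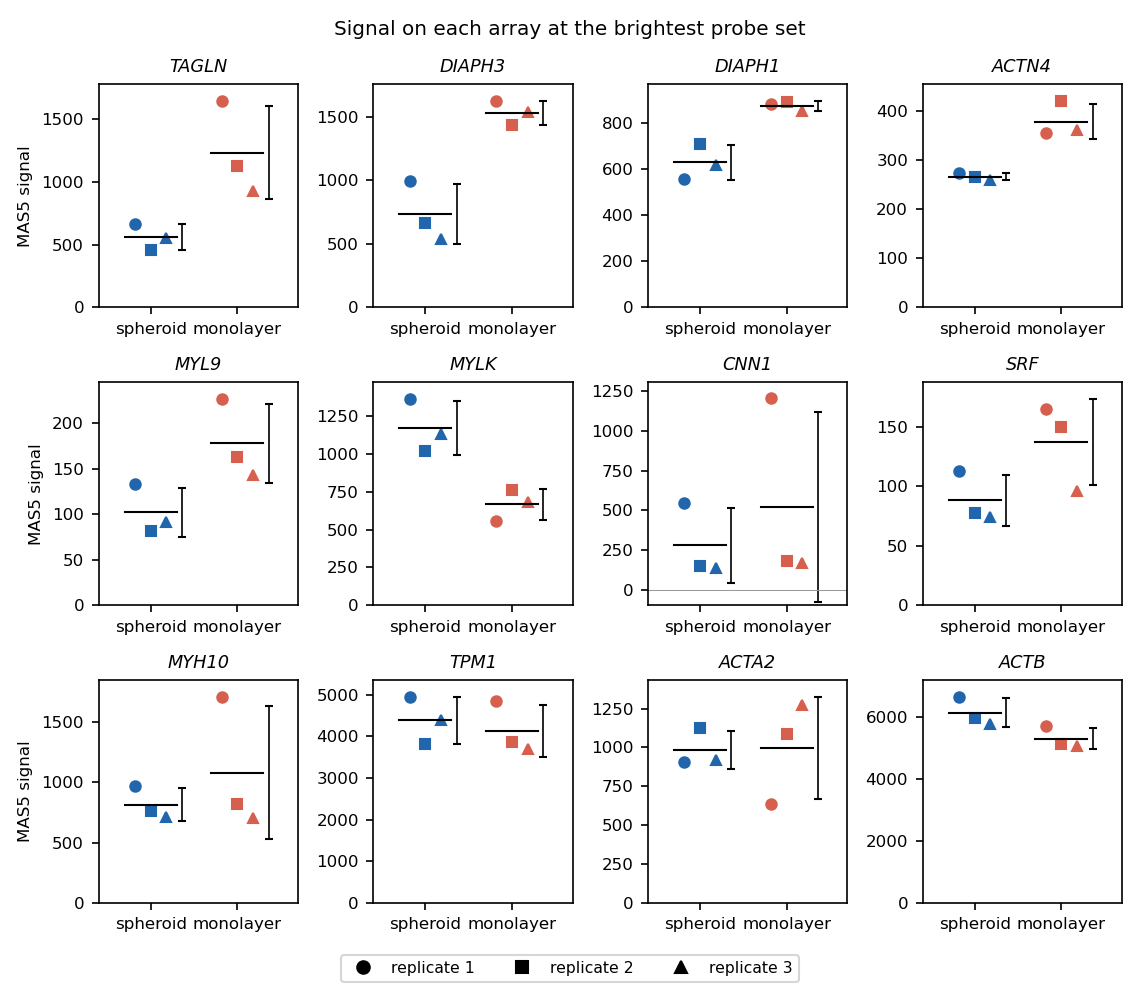
MAS5 signal (linear scale, as deposited) of 12 of the genes on each array, spheroids left of monolayers in each panel, with the group mean as a line and the SD (n = 3) as a bar at its side. Every spheroid lies below every monolayer for TAGLN, DIAPH3, DIAPH1, ACTN4 and MYL9 and above every monolayer for MYLK and ACTB, while replicate 1 stands out in both groups for CNN1. The SD bar of the CNN1 monolayers reaches below 0.

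The tropomyosins, which coat filaments and set which motors can bind, gave 3 negative log2 fold changes and no call. TPM2 averaged 1520 ± 60.4 in spheroids and 1719 ± 140 in monolayers (SD, n = 3 each). Its log2 fold change was -0.32, with a limma adjusted p of 0.166, and it was the one tropomyosin at an unadjusted p under 0.05. TPM4 was at -0.30 and TPM1 at -0.06. The TPM1 signals overlapped fully, at 4959, 3823 and 4386 in spheroids and 4856, 3864 and 3704 in monolayers. All 6 TPM1 probe sets were negative, from -1.29 to -0.06, and none passed.

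No gene of the focal adhesion and LIM protein class passed by limma at its brightest probe set, at an adjusted or an unadjusted p under 0.05. Vinculin (VCL), which reinforces adhesions under load, averaged 2623 ± 155 in spheroids and 2484 ± 145 in monolayers (SD, n = 3 each), with a log2 fold change of -0.07 (95% interval -0.34 to 0.21). Talin (TLN1), which activates integrins, was at 0.24 (95% interval -0.32 to 0.79). Zyxin (ZYX), which marks mature adhesions and repairs stress fibers, averaged 180 ± 4.55 in spheroids and 203 ± 22.3 in monolayers (SD, n = 3 each), with a log2 fold change of -0.31. FHL2, a LIM protein that shuttles to the nucleus, was at -0.28. ZYX and FHL2 were apart between the groups on centred values but not on the deposited signals. PDLIM5, which binds alpha-actinin, was at -0.16, and all 10 of its probe sets were negative without a call.

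PDLIM7, an adaptor of the PDZ and LIM family, had called probe sets of the opposite sign to its brightest one. Its brightest probe set gave 62.9, 53.7 and 63.7 in spheroids, against 41.7, 65.2 and 42.6 in monolayers, overlapped between groups, and had a log2 fold change of 0.15. Of its 7 probe sets, 5 were positive without a call and 2 fell. One of those 2 gave 12.6, 6.31 and 2.44 in spheroids, against 29.5, 25.6 and 26.9 in monolayers, a log2 fold change of -2.38 (limma adjusted p = 0.0323). The other gave 4.78, 3 and 2.84 in spheroids, against 21.3, 9.01 and 20 in monolayers, a log2 fold change of -2.33 (limma adjusted p = 0.0295). Both lay below the array medians in all spheroids, with 1 spheroid signal of the first and 2 of the second under 3.11, so that the sizes are uncertain. Both lost their calls without monolayer 1 (limma adjusted p = 0.0534 and 0.0754). Both calls were also lost without monolayer 3, spheroid 2 or spheroid 3.

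Over all 115 probe sets of the measured genes, 13 fell and none rose, in 7 genes (TAGLN, DIAPH3, DIAPH1, ACTN4, ACTN1, BAIAP2 and PDLIM7). Over all probe sets tested, 6.65% fell and 2.78% rose. That none of the 115 rose depended on the setting. Without centring, and also after quantile normalization, 2 were called higher and 12 lower. Without monolayer 1, 3 were called higher and 15 lower. At 29 of the 115 probe sets at least 1 array was below a signal of 3.11, the 20th percentile of all signals. Raising such signals to this floor left the count at 13.

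**Figure D3:**
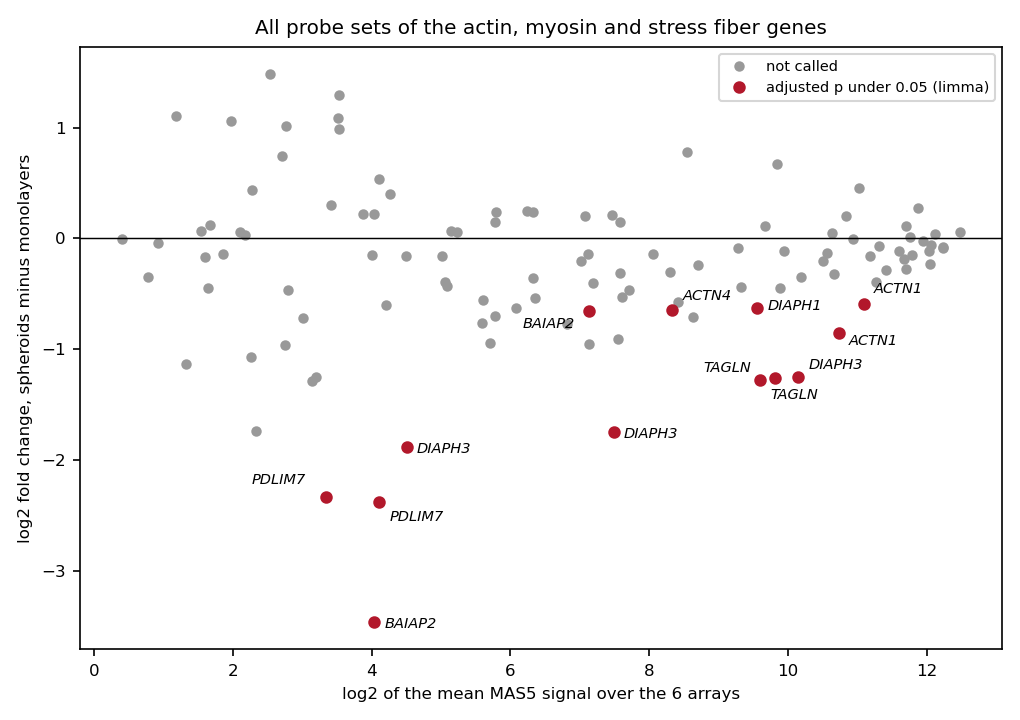
Log2 fold change (spheroids minus monolayers, centred on the array median) of the 115 probe sets against the log2 of their mean MAS5 signal over the 6 arrays. The 13 probe sets in red passed at an adjusted p under 0.05 by limma and all lie below 0. Those of TAGLN, DIAPH1, ACTN4 and ACTN1 are bright, whereas both of PDLIM7 and 1 each of DIAPH3 and BAIAP2 are dim.

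SRF was read at 113, 77.2 and 73.9 in spheroids, against 165, 150 and 95.8 in monolayers. Spheroid 1 was above monolayer 3, so that the groups overlapped. The log2 fold change was -0.77 (SE 0.26, limma adjusted p = 0.113), and a second probe set was at -0.15. The 8 measured genes with a CArG box in the promoter window had a median log2 fold change of -0.26, from -0.77 for SRF to 0.67 for MYLK, and none passed at the brightest probe set. The 25 measured genes with a window and no box had a median of -0.11, from -1.25 to 0.27, and 3 passed (DIAPH3, DIAPH1 and ACTN4). The ranges of the 2 sets overlapped. At other probe sets, ACTN1 of the first set and BAIAP2 and PDLIM7 of the second had calls. TAGLN, ACTB and MYL9 had no window and were in neither set. Boxes outside the window or of a looser sequence were not looked for.

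Beyond the listed genes, 79 of 85 further genes of the actin pathway were measured, in lists that cover other assembly factors, other bundling proteins, other myosins, other focal adhesion proteins and SRF cofactors and targets. Of the 79 genes, 3 rose, 10 fell and 66 did not pass, against 3.88% and 9.22% of all genes. Without centring, 12 were called, 7 higher and 5 lower. Without monolayer 1, 4 rose and 13 fell. Without the trend, 2 rose (GSN and FOS) and none fell.

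The SRF cofactors and targets held the largest differences, in both directions, with 1 of 14 genes rising and 4 falling. CCN2, a matricellular protein and target of the mechanosensitive coactivators YAP and MRTF, gave 531, 427 and 461 in spheroids, against 2225, 1154 and 1291 in monolayers. It fell 3.5-fold, with a log2 fold change of -1.81 (SE 0.25, limma adjusted p = 0.00287). THBS1, which encodes the matrix protein thrombospondin-1, gave 208, 84.8 and 68.2 in spheroids, against 605, 246 and 349 in monolayers, a log2 fold change of -1.96 (limma adjusted p = 0.0255). Replicate 1 was the highest in both groups, but the groups did not overlap. SMTN, which encodes the smooth muscle protein smoothelin, fell by 1.02 on the log2 scale (limma adjusted p = 0.0273), and TUFT1 fell by 0.95 (limma adjusted p = 0.0439). Of these 4 calls, that of CCN2 held on leaving out any 1 array. That of THBS1 was lost without monolayer 3, spheroid 2 or spheroid 3. SMTN kept its call on leaving out monolayer 1 but on leaving out no other array, and TUFT1 kept its call on leaving out monolayer 3 or spheroid 1 alone. SMTN and TUFT1 were also not called without centring, nor was TUFT1 after quantile normalization. FOS, an immediate early gene and SRF target, went the other way, at 60.3, 61.3 and 41 in spheroids, against 10.1, 14.4 and 12.5 in monolayers. It was 3.95-fold higher in spheroids (log2 fold change 1.98, limma adjusted p = 0.00386). Its monolayer signals lay below the array medians, so that the size is uncertain.

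Among the other assembly factors, GSN rose and CORO1C fell, of 23 measured. GSN, which encodes the severing and capping protein gelsolin, gave 511, 386 and 373 in spheroids, against 102, 114 and 94.7 in monolayers. The spheroid level was 3.67-fold higher (log2 fold change 1.88, SE 0.18, limma adjusted p = 0.000813). CORO1C, a coronin of the cell cortex, fell by 0.50 on the log2 scale (limma adjusted p = 0.0453), a call that was lost on leaving out any 1 array other than monolayer 1. The groups did not overlap for either gene.

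Of 12 other bundling and crosslinking genes, SYNPO rose while ANLN and FSCN1 fell. SYNPO, which encodes synaptopodin, an actin organizer that binds alpha-actinin, gave 372, 273 and 191 in spheroids, against 147, 97 and 98.9 in monolayers, with a log2 fold change of 1.12 (limma adjusted p = 0.0283). ANLN, which encodes anillin of the contractile ring in dividing cells, gave 2125, 2223 and 1661 in spheroids, against 3292, 2973 and 3112 in monolayers, with a log2 fold change of -0.80 (limma adjusted p = 0.00681). FSCN1, which encodes fascin, the bundler of filopodia, fell by 0.92 on the log2 scale (limma adjusted p = 0.0402). ANLN kept its call on leaving out any 1 array. FSCN1 lost it without centring, after quantile normalization and without monolayer 2, monolayer 3, spheroid 2 or spheroid 3, and SYNPO without monolayer 2, monolayer 3, spheroid 1 or spheroid 2. Of 20 other focal adhesion genes, 3 fell and none rose. These were PDLIM2 (-0.77), LMO7 (-1.12) and the scaffold BCAR1 (-0.55), with limma adjusted p from 0.0233 to 0.0434, and LMO7 and BCAR1 lost the call without monolayer 1 or without centring. The 3 calls of that list became 0 without monolayer 3, spheroid 2 or spheroid 3 and after quantile normalization, and 4 genes were called without monolayer 1. None of the 10 other myosin genes passed by limma, and 1 was higher at an unadjusted p under 0.05. That gene, MYO10, which encodes a motor of filopodia, was at 0.51 (limma adjusted p = 0.0746) and passed without centring, at 0.65 (limma adjusted p = 0.029), and after quantile normalization. The methods' t-test with Benjamini-Hochberg adjustment called none of the 10.

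**Figure D4:**
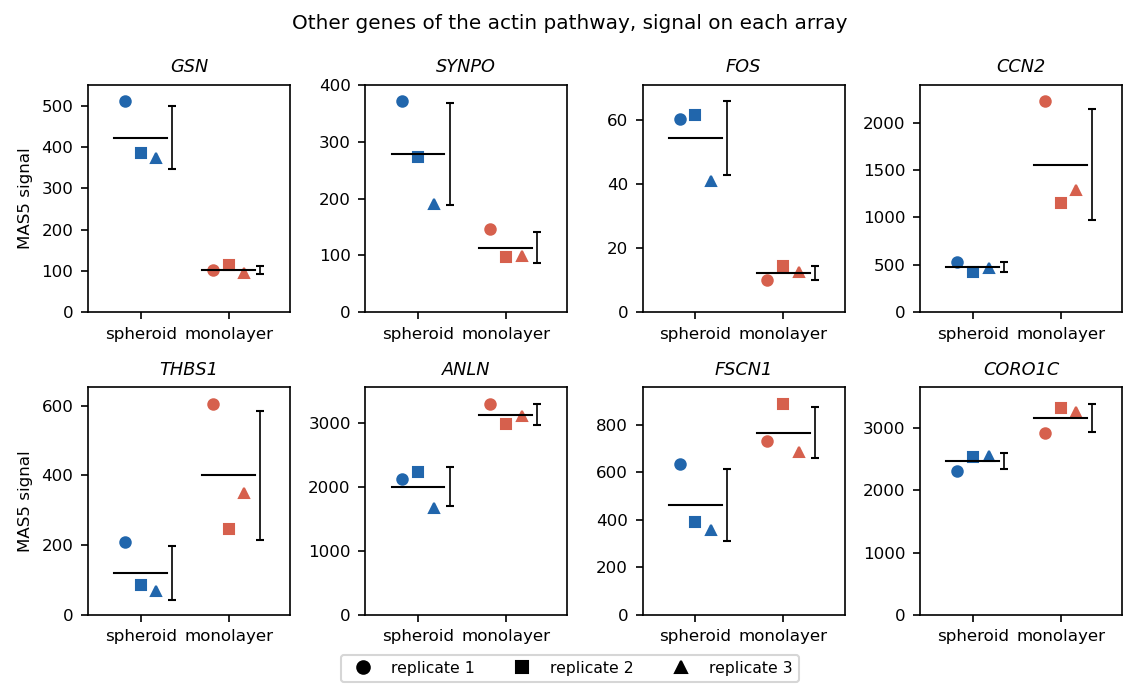
MAS5 signal (linear scale, as deposited) of 8 called genes of the wider actin pathway on each array, spheroids left of monolayers, with the group mean as a line and the SD (n = 3) as a bar. GSN, SYNPO and FOS are higher in every spheroid than in every monolayer, and CCN2, THBS1, ANLN, FSCN1 and CORO1C are lower.

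Markers of other cells were looked at because several of the listed genes are known from smooth muscle and fibroblasts. Of 10 smooth muscle markers, 2 fell (SYNM and SMTN) and none rose, and both calls were lost without centring and without monolayer 2, monolayer 3 or spheroid 3. The summed signal of the list was 231 to 263 in spheroids and 277 to 311 in monolayers. Of the 10 log2 fold changes, 5 were negative and 5 positive. At an unadjusted limma p under 0.05, SYNM and SMTN were lower and CASQ2 was higher. CASQ2 and KCNMB1 were higher in every spheroid than in every monolayer without passing, and CASQ2 was under 3.11 on 5 arrays. The markers MYH11, DES, MYOCD and LMOD1 were between 2.32 and 31.6 on all arrays, and none of them passed. SMTN is also counted among the SRF targets, and the list also holds ACTG2. No striated muscle marker of 10 passed by limma at an adjusted or an unadjusted p under 0.05, with sums of 68.6 to 124 in spheroids and 69 to 88.1 in monolayers. Of 10 fibroblast markers, PDGFRA alone passed and rose, at 107, 40.5 and 47 in spheroids, against 4.74, 7.3 and 2.13 in monolayers. All its monolayer signals lay below the array medians, and 1 was under 3.11. At an unadjusted limma p under 0.05, PDGFRA and POSTN were higher and none was lower. The sum over the list was 2055 to 2296 in spheroids and 1869 to 2407 in monolayers. COL1A1, at 1024 to 1611, made up most of that sum. No leukocyte marker of 8 passed by limma (2 higher at an unadjusted p under 0.05), and the summed signal was at least 191 in every spheroid, above the 134 to 188 of the monolayers. No endothelial marker of 8 passed by limma (1 higher at an unadjusted p under 0.05), with sums of 184 to 242 in spheroids and 250 to 486 in monolayers, the highest in monolayer 1. The mesothelial and epithelial markers KRT7, KRT8, KRT18, KRT19 and WT1 were between 1347 and 6443 on all arrays. MSLN was between 179 and 409. Other markers of the list varied more, KRT5 from 79.3 to 1845 and UPK3B from 427 to 2080. THBD was lower in every spheroid, at 96.1, 86.5 and 54.3, against 349, 99.9 and 127 in monolayers. Its log2 fold change of -1.24 did not pass (limma adjusted p = 0.109). Of the 11 mesothelial markers, PDPN alone passed, with a higher level in spheroids (log2 fold change 1.10, limma adjusted p = 0.0396), a call that was lost on leaving out any 1 array other than monolayer 1. At an unadjusted limma p under 0.05, CALB2 and PDPN were higher and THBD was lower. The summed signal of that list, mostly from KRT7, KRT8, KRT18 and KRT19, was 28979 to 32904 in spheroids and 21328 to 30741 in monolayers. Without monolayer 1, 5 mesothelial markers rose, and of the fibroblast markers 3 rose and 1 fell. The part of these markers in the values of the actin cytoskeleton genes was not tested.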

How the data were processed

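RNA of 3 spheroid and 3 monolayer cultures of NCI-H226 was measured on 1 array each. The deposited intensities are linear probe set signals computed by the authors with MAS5, per the labels. The study's methods also name a normalization to the median, which the array medians do not show. Control probe sets (62) were removed after centring, and 54613 probe sets remained. Log2 intensities were centred on each array median and tested with limma 3.58.1 in R 4.3.3 (lmFit and eBayes with trend, Benjamini-Hochberg, threshold 0.05). The fit was tested on simulated data. Gene symbols came from the platform annotation, in which 41097 probe sets had 1 symbol, 1801 had several and the rest had none. Each gene was read by its 1-symbol probe set with the highest mean level. Deposited values hold no detection calls and no counts, so that the number of arrays limits the precision.

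The members and lists were chosen with earlier results of these data known. Values on every array were given for listed genes called with an absolute log2 fold change of at least 1, for genes with a called probe set that opposes the brightest one, for the actins and for SRF. Up to 4 called genes per pathway list were named. Other genes given with values on every array (DIAPH1, ACTN4, ACTN1, BAIAP2, MYL9, MYLK, CNN1, MYH10 and TPM1), TUFT1, MYO10, and the marker genes were chosen after their values were seen. Alternatives were no centring, quantile normalization, centring on the 75th percentile (chosen after seeing the data), a floor of 3.11, no mean-variance trend in limma, the methods' t-test, dim probe sets (under the median level) left out, a replicate block, leaving out each array, and other ways to read a gene from its probe sets. Promoters are from RefSeq (GRCh38.p14), and 38 of 41 listed genes matched. No gene coordinates are given for the array features, whose build is not given in the sources used here. One further item is not reported here. Protein sequences of the actins were not analysed here.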

Additional observations from a re-analysis of the deposited data

How the results depend on the processing

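Over 45 named values of the listed genes, no call changed direction in any of 15 alternatives. Several of these could not change it, since they keep the log2 fold change as it is. They are the fit without the trend, the t-tests, the replicate block and leaving out dim probe sets. The 4 genes called became 0 without the trend, 1 by the methods' t-test after Benjamini-Hochberg adjustment (DIAPH1), 8 by that test unadjusted, and 2 to 5 on leaving out 1 array. The 13 probe sets called became 1 without the trend, 3 and 22 by the t-test with and without adjustment, and 6 to 18 on leaving out 1 array (6 without monolayer 2 or spheroid 3, 7 without monolayer 3 or spheroid 2). All 5149 probe sets called became 457 without the trend, 1241 and 10731 by the t-test with and without adjustment, and 2438 to 6577 on leaving out 1 array. The 13 calls of the wider pathway became 9 with the floor, 2 without the trend or by the adjusted t-test, and 4 to 17 on leaving out 1 array (4 without spheroid 2, 5 without spheroid 3 or monolayer 3, 6 without monolayer 2, 8 without spheroid 1). The median of -0.17 was -0.03 without centring, -0.04 with centring on the 75th percentile, and -0.24 to -0.11 on leaving out 1 array. The first 2 settings change only the constant taken from each array. Reading a gene by the median over its probe sets called 5 of 36. Leaving out probe sets of the shared kind called 3 of 27, which were DIAPH3, ACTN4 and BAIAP2. At the probe sets then read, TAGLN (limma adjusted p = 0.0505) and DIAPH1 (limma adjusted p = 0.957) were not called.

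Replicate numbers are shared between the groups. The group mean of each probe set was subtracted, and the deviations left were compared between same-numbered cultures. Their correlations over all probe sets were 0.0909, -0.0131 and 0.0223, none above 0.1, and the numbers were not taken as pairs in the main fit. Dim probe sets are part of these correlations, so that they cannot show that the numbers are unpaired. With the replicate number as a block, 7 genes, 19 probe sets and 6133 of all probe sets were called. The genes gained were MYL9 (limma adjusted p = 0.0072), SRF (limma adjusted p = 0.0351) and CNN1 (limma adjusted p = 0.0356).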

Other observations

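On centred values, replicate 1 was the highest array in both groups for 13 of the 36 genes (36.1%), against 18.2% of all genes. These were ACTB, MYL9, MYH9, MYH10, TPM1, TAGLN, CNN1, LIMA1, FHL2, CFL1, DIAPH3, BAIAP2 and SRF. ACTA2 was the 1 gene for which replicate 1 was lowest in both groups on centred values (2.78%, against 12.8% of all genes). On the deposited signals, replicate 1 was also lowest in both groups for CAPZA1 and ARPC2, and highest in both for CALD1. For CNN1 alone, replicate 1 exceeded the next array by at least 0.5 on the centred log2 scale in both groups (2.78%, against 2.93% of all genes). CALB2, which encodes the mesothelial marker calretinin, also differed between monolayer 1 and the other monolayers, at 2238, 1317 and 1765 in spheroids, against 1582, 163 and 83.6 in monolayers.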
